A study of Mus musculus with 13 samples.

Results

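The 7 subunits of respiratory complex I that are encoded in mitochondrial DNA, mt-Nd1, mt-Nd2, mt-Nd3, mt-Nd4, mt-Nd4l, mt-Nd5 and mt-Nd6, were measured in liver RNA of alcohol-fed mice. They were chosen by gene symbol and make up 7 of the 53392 genes of the count table. All 7 passed the filter on low counts and were among the 14317 genes tested. RNaseq was performed on 13 livers of female mice, 8 to 14 weeks old, that received 28% of calories from ethanol (Etoh) for 4 weeks. Every mouse was homozygous for Rosa26-loxP-stop-loxP-rtTA, a Dox-dependent transactivator that is silent until Cre removes its stop signal, and for Albumin-Cre, which does so in hepatocytes. ASAH+ mice also carried TRE-ASAH1, a transgene for the ceramidase ASAH1 that doxycycline (Dox) switches on, and ASAH- littermates lacked it. The diet held either Dox (200 mg/l, Etoh-Dox) or none (Etoh), which gave 3 groups, ASAH- Etoh-Dox (n = 4), ASAH+ Etoh-Dox (n = 5) and ASAH+ Etoh (n = 4). The design text of the series states 4 mice for each group, whereas the sample labels place 5 in ASAH+ Etoh-Dox, and all 5 were used. No ASAH- mice without Dox and no mice without ethanol were analysed here, so that Dox and the transgene change together between ASAH+ mice with and without Dox, whereas Dox and the genotype change together between ASAH- Etoh-Dox mice and ASAH+ Etoh mice.

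Complex I takes electrons from NADH, passes them to ubiquinone and pumps protons across the inner mitochondrial membrane. Its hydrophobic membrane arm is built around the mitochondrially encoded subunits, whereas the subunits that carry flavin and iron-sulfur clusters, and all accessory subunits, are encoded in the nucleus and imported. Mitochondrial genes are transcribed from both strands of the circular genome into long precursors that are cut into single mRNAs, tRNAs and rRNAs. Dox, a tetracycline, binds the bacterial ribosome and also slows translation on the related mitochondrial ribosome, where these subunits are made. RNaseq measures their mRNAs and not the protein, and in whole liver fewer cells of a type and less RNA per cell cannot be told apart.

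The libraries held 17819486 to 35358711 counts. The labels were checked on Asah1, which measured 40.04 to 55.0 CPM in ASAH- Etoh-Dox mice, 44.2 to 48.3 CPM in ASAH+ Etoh mice and 9668 to 15940 CPM in ASAH+ Etoh-Dox mice. CPM are counts relative to the library total, scaled by the TMM method. For the ASAH+ mice the sample titles name the opposite Dox treatment from the descriptions, and the descriptions were used. Hepatocyte markers (Alb, Apoa1, Ttr, Hnf4a and Cps1) summed to 77920 to 127800 CPM in the 13 livers, which matches the labelled tissue. A further list of 6 red cell genes summed to 215 to 1714 CPM in ASAH- Etoh-Dox mice and 240 to 871 CPM in ASAH+ Etoh-Dox mice, above the 135 to 192 CPM of ASAH+ Etoh mice. A list of 6 Kupffer cell genes summed to 315 to 676 CPM in ASAH- Etoh-Dox mice, just above the 245 to 313 CPM of ASAH+ Etoh mice, and to 235 to 449 CPM in ASAH+ Etoh-Dox mice. No gene of either list was at 0 in all mice. A list of 6 stellate cell genes summed to 262 to 317 CPM in ASAH- and 207 to 257 CPM in ASAH+ Etoh-Dox mice, and to 220 to 274 CPM on Etoh. The remaining lists of 6 genes each (sinusoidal endothelium, cholangiocyte, T and B cell, neutrophil, adipocyte and pancreas) overlapped between the diets. No tested gene of the marker lists passed in any comparison, and the part of these lists in the results that follow was not tested. Of the 6 listed genes each, 5 red cell, 5 cholangiocyte, 2 neutrophil, 1 adipocyte and 1 pancreas gene could be tested, and all found genes of the other lists.

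The 7 mRNAs together took 1.96 to 2.71% of all counts of a mouse. Their summed level was 25050 ± 927 CPM (SD, n = 4) in ASAH- Etoh-Dox mice, 24880 ± 1201 CPM (SD, n = 5) in ASAH+ Etoh-Dox mice and 22270 ± 2572 CPM (SD, n = 4) in ASAH+ Etoh mice. Among the 13 mitochondrially encoded mRNAs they held 33.6 ± 1.04%, 35.3 ± 0.967% and 34.5 ± 0.695% of the counts in the same order. The 3 groups overlapped in both measures, which rest on the counts as deposited. With counts of nuclear copies added, as described for mt-Nd3 below, the 7 mRNAs summed to 26020, 25910 and 23020 CPM on average. The 13 mRNAs then summed to 90020, 88500 and 82730 CPM, in the same order of groups.

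Per kilobase of mRNA the members lay far apart, and the order was nearly fixed over the mice. Mean levels over the 13 mice, in CPM per kb, were 7152 for mt-Nd2, 5366 for mt-Nd4, 5081 for mt-Nd1, 3103 for mt-Nd4l, 1865 for mt-Nd5, 317 for mt-Nd3 and 28.6 for mt-Nd6. Each member was above the next in that order in 13 of 13 mice, except that mt-Nd4 was above mt-Nd1 in 8 of 13, so these neighbours were not separated. Counts were divided by the full annotated length, with no allowance for the length of the reads. What this does to the values of the shortest members, mt-Nd4l (297 bases) and mt-Nd3 (348 bases), was not tested, so the order describes these values only. Features of how the values were made bear on the lowest members. The level of mt-Nd3 depends on a nuclear copy that was assigned most of the reads of the pair: with that copy added it was 2959 ± 479.2 CPM per kb (SD, n = 13), above mt-Nd5 in 13 of 13 mice and above mt-Nd4l in 5. The lowest, mt-Nd6, is the only member on the other strand. Its mRNA is known, from human cells, to carry little or no poly(A) tail, and the libraries were made from poly(A)-selected RNA, so that its low value cannot be read as its share in the cell.

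**Figure D1:**
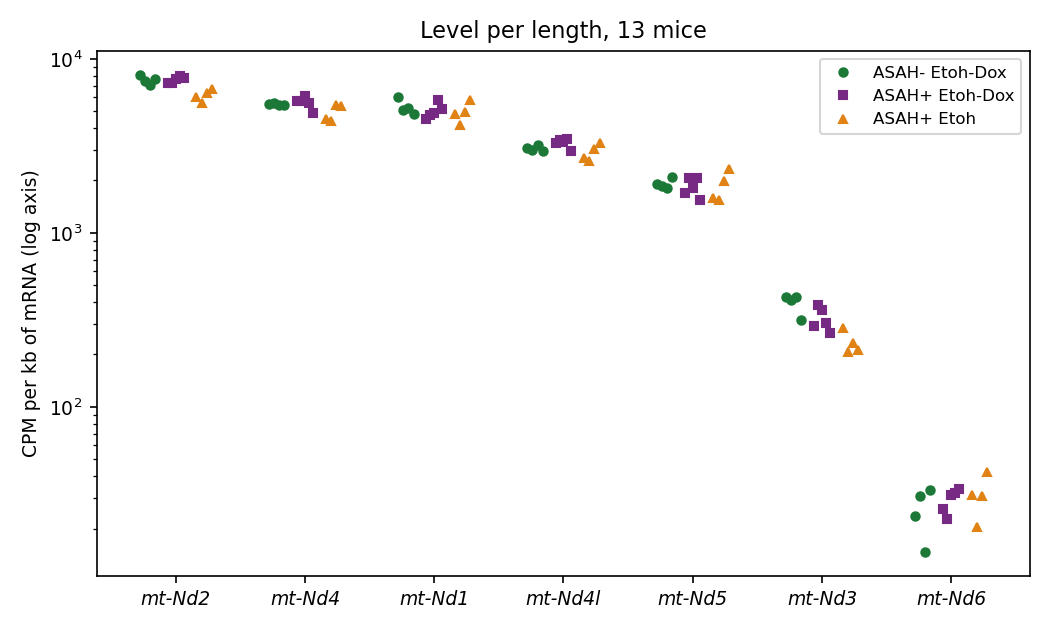
Level of each mitochondrially encoded complex I mRNA in CPM per kb (vertical log axis) in the 13 mice, by group, with members ordered by their mean. Each point is a mouse; mt-Nd2 lies highest and mt-Nd6 lowest in all 13 mice, and mt-Nd4 and mt-Nd1 overlap.

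All 7 genes lie on chromosome M of GRCm38, each as a single exon that is nearly all coding. On the plus strand are mt-Nd1 (bases 2751 to 3707), mt-Nd2 (3914 to 4951), mt-Nd3 (9459 to 9806), mt-Nd4l (9877 to 10173), mt-Nd4 (10167 to 11544) and mt-Nd5 (11742 to 13565), and on the minus strand is mt-Nd6 (13552 to 14070). Neighbours overlap at a pair of places, which are shown because counting cannot assign reads that lie within them to a single gene without strand or flanking bases. The start of mt-Nd4 lies within the last 7 bases of mt-Nd4l, on the same strand, at chrM:10134-10206 with the shared bases in capitals:
mt-Nd4l to mt-Nd4: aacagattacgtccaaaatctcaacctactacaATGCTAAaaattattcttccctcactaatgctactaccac
The ends of mt-Nd5 and mt-Nd6 face each other and share 14 bases, in capitals, which are read from opposite strands. The library kit marks the strand, and whether counting used it is not given in the sources used here. The ends are given at chrM:13526-13565, plus strand, and at chrM:13552-13591, minus strand:
end of mt-Nd5: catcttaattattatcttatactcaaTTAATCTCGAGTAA
end of mt-Nd6: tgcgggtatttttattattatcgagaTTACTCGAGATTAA
All sequences were taken from the GENCODE M21 transcripts on GRCm38.

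The question of the study's design that bears on these genes was which control serves best for a Dox-induced transgene, mice that lack the transgene or mice that lack Dox. The members were therefore compared first between diets and then between genotypes. Both diet comparisons set an Etoh-Dox group, ASAH+ or ASAH-, against the same ASAH+ Etoh mice. That of the ASAH- mice changes the genotype as well as Dox, and a difference from Etoh in ASAH- mice always means this comparison. Of the 7, mt-Nd2 and mt-Nd3 were higher in both Etoh-Dox groups than in ASAH+ Etoh mice at an unadjusted p under 0.05 in edgeR. At that level 4.05% of all genes were higher in ASAH+ and 5.08% in ASAH- Etoh-Dox mice. The intervals of mt-Nd1, mt-Nd4l, mt-Nd5 and mt-Nd6 lay on both sides of 0 in both diet comparisons, widest for mt-Nd6. That of mt-Nd4 did so in ASAH- mice only. No member passed an adjusted p of 0.1 in edgeR's quasi-likelihood test on the genes that passed the count filter, in any comparison, where 0.014% of genes passed in each of the diet and genotype comparisons, and without that filter edgeR called mt-Nd3 in ASAH- Etoh-Dox mice against Etoh, beside 0.007% of genes. DESeq2 on all 13 mice called mt-Nd2 and mt-Nd3 in both diet comparisons, beside 4.94% of the 1982 genes to which it gave an adjusted p in ASAH+ mice and 1.73% of 8625 in ASAH- mice, and no member between the genotypes, beside 0.0759% of 15808. With each mouse left out in turn, DESeq2 kept the calls of mt-Nd2 in ASAH+ mice and of mt-Nd3 in ASAH- mice. It lost that of mt-Nd3 in ASAH+ mice without any of several mice of all 3 groups (adjusted p up to 0.410), and that of mt-Nd2 in ASAH- mice without ASAH- Etoh-Dox replicate 1 (adjusted p = 0.183) or ASAH+ Etoh replicate 1 (adjusted p = 0.139). The percent of all genes called by these fits also varied. Without ASAH- Etoh-Dox replicate 3 and 4 it was 0.653% and 4.54% in ASAH+ mice, and 0.312% and 4.4% in ASAH- mice.

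mt-Nd2 belongs to the antiporter-like subunits of the membrane arm. Its mRNA begins with ATA, which mitochondria read as methionine, as the start of the gene shows (chrM:3914-3973, start codon in capitals):
start of mt-Nd2: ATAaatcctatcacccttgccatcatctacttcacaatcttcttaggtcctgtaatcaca
Its level was 7539, 7531, 7932, 8315 and 8076 CPM in the 5 ASAH+ Etoh-Dox mice. In the 4 ASAH- Etoh-Dox mice it was 8419, 7729, 7368 and 7932 CPM. In the 4 ASAH+ Etoh mice it was 6246, 5812, 6623 and 6982 CPM. Every mouse on Etoh-Dox was above every mouse on Etoh, and the genotypes on Etoh-Dox overlapped. The means were 7879 ± 342 (SD, n = 5), 7862 ± 439 (SD, n = 4) and 6416 ± 502 CPM (SD, n = 4).

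The difference in mt-Nd2 was of the same size in both diet comparisons. On the log2 scale, ASAH+ Etoh-Dox mice exceeded ASAH+ Etoh mice by 0.30 (SE 0.076, 95% interval 0.13 to 0.46, 1.23-fold, adjusted p = 0.473, edgeR). ASAH- Etoh-Dox mice exceeded the same 4 mice by 0.29 (SE 0.079, interval 0.12 to 0.46, adjusted p = 0.389, edgeR). By an exact two-sided permutation of log2 CPM the p-values were 0.00794 for 5 against 4 mice and 0.0286 for 4 against 4, each the smallest that its design allows and not adjusted for the 21 such tests of members. In DESeq2 on all 13 mice the adjusted p was 0.00443 and 0.0355. The genotypes on Etoh-Dox differed in mt-Nd2 by 0.0031 on the log2 scale (SE 0.075, interval -0.16 to 0.16).

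The share of mt-Nd2 in the 13 mitochondrial mRNAs, which does not follow the amount of mitochondrial RNA in a library, separated the diets in 1 of the 2 comparisons. It was 11.2% in ASAH+ Etoh-Dox mice (10.7 to 12.1%) and 9.97% in ASAH+ Etoh mice (9.51 to 10.4%), with no overlap (exact permutation p = 0.00794). In ASAH- Etoh-Dox mice it was 10.54% (10.0 to 11.1%), higher than in ASAH+ Etoh mice in 12 of 16 pairs (exact permutation p = 0.171). With the counts of nuclear copies added to every mitochondrial mRNA, as described for mt-Nd3, the shares were 8.91%, 8.74% and 7.77% in ASAH+ Etoh-Dox mice, ASAH- Etoh-Dox mice and ASAH+ Etoh mice, and neither Etoh-Dox group overlapped the Etoh group (exact permutation p = 0.00794 and 0.0286).

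**Figure D2:**
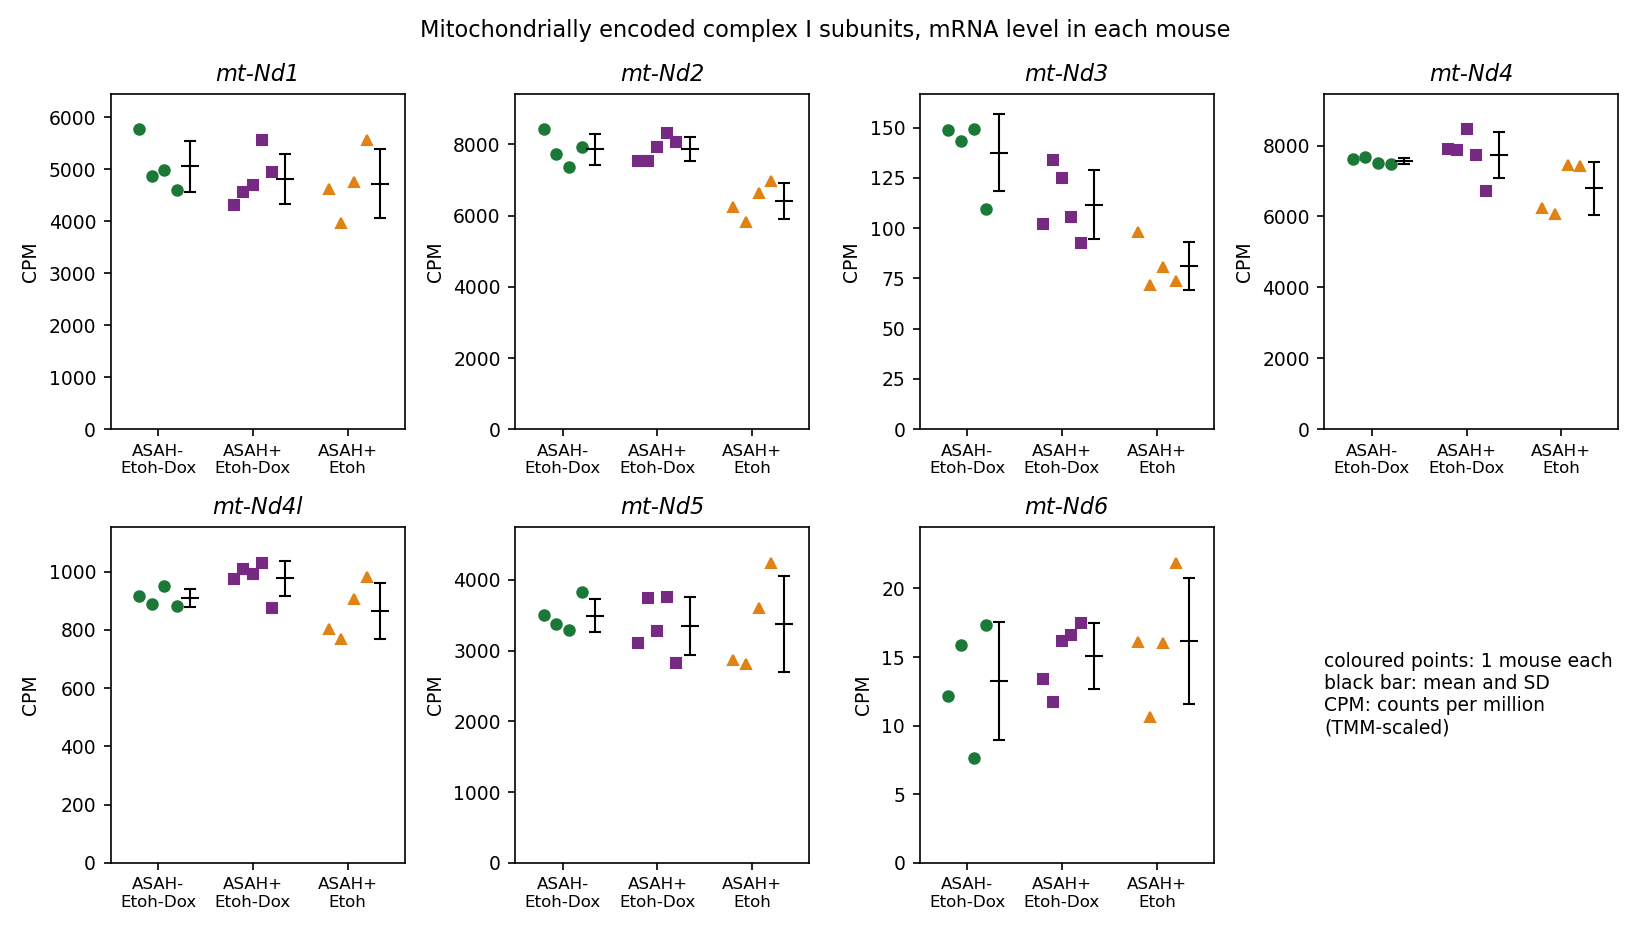
Level of each member in CPM (vertical axes, from 0) in the 13 mice by group; coloured points are mice and black bars the mean and SD. For mt-Nd2 the 9 mice on Etoh-Dox lie between 7368 and 8419 CPM, above the 5812 to 6982 CPM of the 4 mice on Etoh, whereas for mt-Nd1, mt-Nd5 and mt-Nd6 all 3 groups overlap.

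mt-Nd3 is a small subunit at the hinge between the membrane arm and the matrix arm. Its reads could not be assigned to it alone, because chromosome 1 holds a nearly identical stretch that is annotated as the pseudogene Gm28438 (chr1:24612775-24613119, minus strand). Over 345 bases the copy differs from mt-Nd3 by T3C, counted from the first base of the mRNA, and it lacks the last 3 bases. Of the 318 words of 31 bases in mt-Nd3, 312 (98.1%) also occur in Gm28438. The first 90 bases and the end of each are printed, since these hold all that separates them, with the differing base and the extra end of mt-Nd3 in capitals (chrM:9459-9548 and chrM:9744-9806, plus strand, and chr1:24613030-24613119 and chr1:24612775-24612834, minus strand):
start of mt-Nd3: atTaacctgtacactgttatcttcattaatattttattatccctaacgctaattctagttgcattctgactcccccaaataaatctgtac
start of Gm28438: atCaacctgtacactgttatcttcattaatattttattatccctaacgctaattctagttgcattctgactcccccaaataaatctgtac
end of mt-Nd3: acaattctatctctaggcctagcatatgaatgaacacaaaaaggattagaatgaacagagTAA
end of Gm28438: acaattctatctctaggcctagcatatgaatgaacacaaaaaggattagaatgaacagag

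The nuclear copy took the larger part of these reads in every mouse. Gm28438 held 14662 to 36757 counts per mouse and mt-Nd3 1273 to 3719 counts. The percent of the pair that was counted on mt-Nd3 was 13.2, 12.4, 13.9 and 10.1% in the 4 ASAH- Etoh-Dox mice. It was 9.11, 12.6, 9.76, 9.12 and 8.87% in the 5 ASAH+ Etoh-Dox mice and 12.7, 10.2, 9.81 and 7.44% in the 4 ASAH+ Etoh mice. This division varied within each group, and any difference in it enters the deposited count of mt-Nd3. How many reads came from chromosome 1 was not tested.

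**Figure D3:**
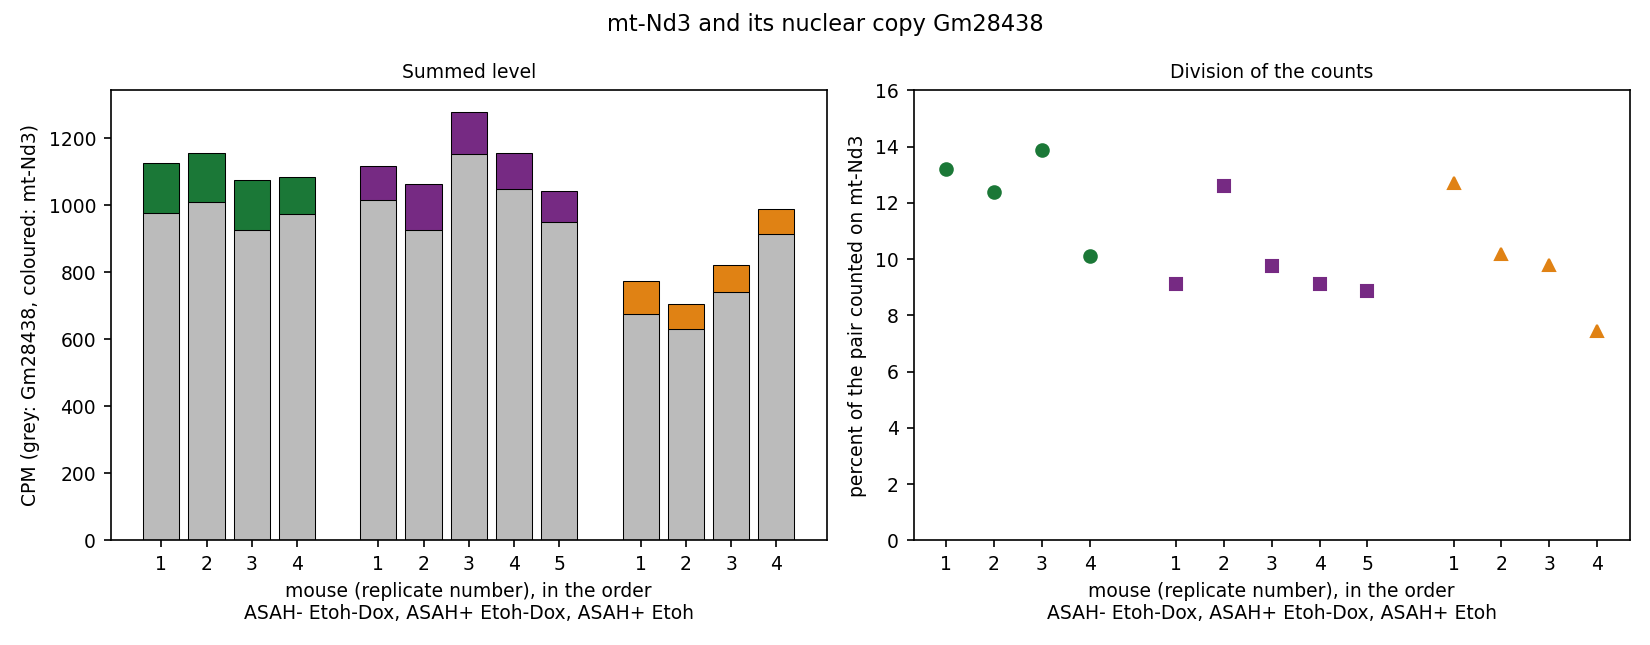
mt-Nd3 and Gm28438 in the 13 mice: left, CPM of Gm28438 (grey) with mt-Nd3 (coloured) stacked on it; right, percent of the pair's counts assigned to mt-Nd3 (green circles, ASAH- Etoh-Dox; purple squares, ASAH+ Etoh-Dox; orange triangles, ASAH+ Etoh). The summed level lies between 1042 and 1279 CPM in the 9 mice on Etoh-Dox and between 704 and 989 CPM in the 4 mice on Etoh, and the assigned percent ranges from 7.44 to 13.9%.

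As deposited, mt-Nd3 measured 149, 143, 149 and 109 CPM in ASAH- Etoh-Dox mice. It measured 102, 134, 125, 105 and 92.5 CPM in ASAH+ Etoh-Dox mice, and 98.3, 72.0, 80.55 and 73.6 CPM in ASAH+ Etoh mice. The ASAH- Etoh-Dox mice lay above all mice on Etoh, and among the ASAH+ mice 1 on Etoh-Dox was below the highest on Etoh (exact permutation p = 0.0286 and 0.0317). The log2 difference from ASAH+ Etoh mice was 0.46 in ASAH+ Etoh-Dox mice (SE 0.13, adjusted p = 0.507, edgeR) and 0.76 in ASAH- Etoh-Dox mice (SE 0.14, adjusted p = 0.248, edgeR). DESeq2 on all 13 mice gave adjusted p-values of 0.0486 and 0.000816 for these, and edgeR without the count filter gave 0.0606 for the latter. Between the genotypes on Etoh-Dox, mt-Nd3 was lower in ASAH+ mice by 0.30 on the log2 scale (log2 difference -0.30, SE 0.13, adjusted p = 0.9997, edgeR). As a share of mitochondrial mRNA it was 0.158% in ASAH+ and 0.184% in ASAH- Etoh-Dox mice against 0.127% on Etoh, with overlap in both (exact permutation p = 0.0873 and 0.0571). With the nuclear copies added to all 13 mRNAs, its shares were 1.28% and 1.23% against 0.992%, in the same order of groups. Neither Etoh-Dox group then overlapped the mice on Etoh (exact permutation p = 0.00794 and 0.0286).

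With mt-Nd3 and Gm28438 summed, the diet differences were close to each other and the difference between genotypes was near 0. The sum was 1110 ± 37.2 CPM (SD, n = 4) in ASAH- Etoh-Dox mice, 1132 ± 93.9 CPM (SD, n = 5) in ASAH+ Etoh-Dox mice and 822 ± 121 CPM (SD, n = 4) in ASAH+ Etoh mice. No mouse on Etoh-Dox overlapped with the mice on Etoh (exact permutation p = 0.00794 and 0.0286, the smallest possible). The log2 differences were 0.46 (SE 0.098, interval 0.25 to 0.67, adjusted p = 0.329, edgeR) in ASAH+ mice and 0.43 (SE 0.10, interval 0.21 to 0.65, adjusted p = 0.397, edgeR) in ASAH- mice. The genotypes on Etoh-Dox differed by 0.03 (SE 0.097, interval -0.18 to 0.24).

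mt-Nd4 and mt-Nd4l, an antiporter-like subunit and a small membrane subunit beside it, are known to share a single mRNA. Their levels had a Pearson r of 0.870 over the 13 mice, the highest of the 21 pairs of members, given as a description of mice that share libraries and scaling. mt-Nd4 measured 7895, 7884, 8452, 7726 and 6706 CPM in ASAH+ Etoh-Dox mice, 7623, 7670, 7519 and 7487 CPM in ASAH- Etoh-Dox mice, and 6237, 6072, 7438 and 7409 CPM in ASAH+ Etoh mice. The ASAH- Etoh-Dox mice lay just above the mice on Etoh (exact permutation p = 0.0286, 7487 CPM against 7438 CPM at the nearest), while ASAH+ Etoh-Dox replicate 5 lay among them. The log2 difference was 0.19 in ASAH+ mice (SE 0.087, adjusted p = 0.680, edgeR) and 0.16 in ASAH- mice (SE 0.092, adjusted p = 0.639, edgeR). Its share of mitochondrial mRNA overlapped between the diets. As deposited, the mean was above that on Etoh (10.52%) in ASAH+ mice, at 10.96% (15 of 20 pairs higher, exact permutation p = 0.214). In ASAH- mice the mean was below that on Etoh, at 10.15% (3 of 16 pairs higher, exact permutation p = 0.171). With the nuclear copies added to all 13 mRNAs the shares still overlapped, but both means were above the 8.22% on Etoh. They were 8.74% in ASAH+ mice (17 of 20 pairs higher, exact permutation p = 0.135) and 8.42% in ASAH- mice (12 of 16, exact permutation p = 0.371).

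mt-Nd4l measured 975.2, 1011, 992, 1030 and 877 CPM in ASAH+ Etoh-Dox mice, 918, 888, 951 and 882 CPM in ASAH- Etoh-Dox mice, and 803, 768, 906 and 981 CPM in ASAH+ Etoh mice. The 3 groups overlapped, and the log2 differences from Etoh were 0.18 (SE 0.084) in ASAH+ mice and 0.07 (SE 0.089) in ASAH- mice by edgeR. Its share of mitochondrial mRNA was lower in ASAH- Etoh-Dox mice, at 1.167 to 1.295%, than in ASAH+ Etoh-Dox mice, at 1.313 to 1.434%, or on Etoh, at 1.301 to 1.376%. Neither pair of groups overlapped (exact permutation p = 0.00794 and 0.0286). With the nuclear copies added to all 13 mRNAs these shares overlapped (1.01, 1.10 and 1.05% on average, exact permutation p = 0.0556 and 0.429), and with mitochondrial rRNA and tRNA in the denominator the exact permutation p was 0.0238 and 0.0857.

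Both genes also have copies in the same stretch of chromosome 1. Gm10222 (chr1:24612407-24612700) is identical to the first 294 of the 297 bases of mt-Nd4l, and Gm28439 (chr1:24611535-24612410) to the first 876 of the 1378 bases of mt-Nd4, both on the minus strand. The copy of mt-Nd4l had 0 counts in all 13 mice, and that of mt-Nd4 had counts in 2 mice only, 1053 in ASAH+ Etoh-Dox replicate 4 and 698 in ASAH+ Etoh replicate 4, or 0.5% of the pair at most. Unlike mt-Nd3, these members kept nearly all reads of their pair, and with the copies added the log2 differences from Etoh in ASAH+ and ASAH- mice remained at 0.19 and 0.16 for mt-Nd4 and at 0.18 and 0.07 for mt-Nd4l. For mt-Nd2, mt-Nd5 and mt-Nd6 the nuclear copies that share words with them held at most 13 counts in any mouse.

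mt-Nd1, mt-Nd5 and mt-Nd6 did not separate the groups. mt-Nd1, the subunit next to the ubiquinone site, measured 4610 to 5768 CPM in ASAH- Etoh-Dox mice, 4308 to 5568 CPM in ASAH+ Etoh-Dox mice and 3964 to 5564 CPM in ASAH+ Etoh mice. Its log2 differences from Etoh were 0.03 (interval -0.20 to 0.26) in ASAH+ mice and 0.10 (interval -0.15 to 0.34) in ASAH- mice. mt-Nd5, the antiporter-like subunit at the far end of the arm, measured 3285 to 3827, 2819 to 3764 and 2809 to 4239 CPM in the same order of groups, and its log2 differences were -0.02 (interval -0.29 to 0.26) and 0.05 (interval -0.24 to 0.33). As deposited, the shares of mt-Nd1, mt-Nd5 and mt-Nd6 in mitochondrial mRNA had lower means in both Etoh-Dox groups than on Etoh. The groups overlapped, with exact permutation p-values from 0.114 to 0.254. With the nuclear copies added to every mitochondrial mRNA these means stayed lower and the groups overlapped (exact permutation p-values from 0.171 to 0.743). The difference in ASAH- mice went from -0.55 to -0.09 percentage points for mt-Nd1 and from -0.51 to -0.17 for mt-Nd5. In ASAH+ mice it went from -0.47 to -0.26 and from -0.46 to -0.28.

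mt-Nd6, the member encoded on the other strand, measured 12.2, 15.9, 7.63 and 17.3 CPM in ASAH- Etoh-Dox mice, 13.4, 11.7, 16.2, 16.6 and 17.5 CPM in ASAH+ Etoh-Dox mice and 16.1, 10.6, 16.05 and 21.9 CPM in ASAH+ Etoh mice. Its log2 differences from Etoh were -0.10 (interval -0.60 to 0.41) and -0.28 (interval -0.81 to 0.25) in ASAH+ and ASAH- mice. With 187 to 484 counts per mouse its counting error was at most 7.31% of the level, against a spread within groups of 16.1 to 32.7% (coefficient of variation). An increase as large as that of mt-Nd2 lay above the intervals of mt-Nd1 and mt-Nd5 in ASAH+ mice and of mt-Nd6 in ASAH- mice, and inside the other 3 intervals, and the intervals of mt-Nd6 also held decreases of that size.

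The counts of members can be read against all genes. At an unadjusted p under 0.05 in edgeR, 3 of 7 members (mt-Nd2, mt-Nd3 and mt-Nd4) were higher in ASAH+ Etoh-Dox mice than on Etoh, where 4.05% of all genes tested were, and 2 of 7 (mt-Nd2 and mt-Nd3) were higher in ASAH- Etoh-Dox mice, where 5.08% were. The median log2 difference of the 7 was 0.18 and 0.10, beside 0.01 and 0.02 over all genes tested. At an adjusted p under 0.1, 2 genes (0.014%) passed in each of the 3 comparisons and 0 members did; beside these 0 members, those at an unadjusted p under 0.05 were 3, 2 and 1, and DESeq2 on all 13 mice called 2, 2 and 0. Over all genes it called 98, 149 and 12 (4.94%, 1.73% and 0.0759% of those with an adjusted p). DESeq2 gave mt-Nd6 no adjusted p in the comparison of ASAH+ mice with and without Dox, so this member could not be called there. Every ASAH+ Etoh-Dox mouse was above every ASAH+ Etoh mouse for 1 of 7 members (mt-Nd2), beside 1.09% of genes. Every ASAH- Etoh-Dox mouse was above the same ASAH+ Etoh mice for 3 of 7 (mt-Nd2, mt-Nd3 and mt-Nd4), beside 3.09%. On the 2 groups compared DESeq2 called 1 member (mt-Nd2) beside 0.839% of genes in the ASAH+ diet comparison, and mt-Nd2 and mt-Nd3 beside 1.57% in the other. Without the count filter edgeR called mt-Nd3 against Etoh in ASAH- Etoh-Dox mice, beside 0.007% of genes. The comparisons share the 4 mice on Etoh, and the members are cut from shared precursors, so neither the comparisons nor the members are independent.

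**Figure D4:**
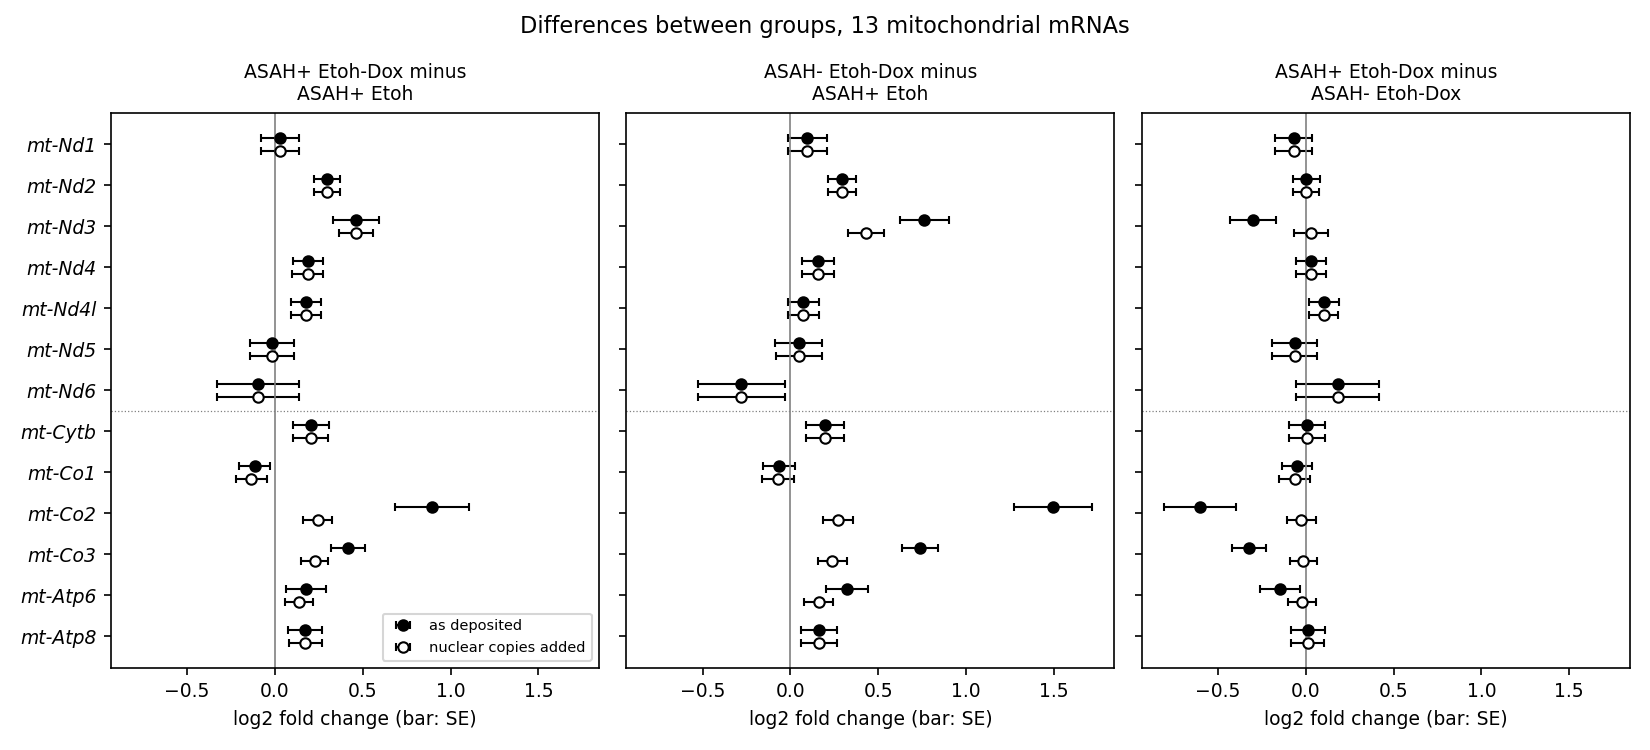
Log2 fold change with SE (edgeR) of the 13 mitochondrial mRNAs in the 3 comparisons, as deposited (filled) and with counts of nuclear copies added (open); the dotted line divides the 7 complex I members from the other 6. mt-Nd2 stays at 0.29 to 0.30 in the diet comparisons in both settings. mt-Nd3 stays at 0.46 in ASAH+ mice. Between ASAH- Etoh-Dox and ASAH+ Etoh mice mt-Nd3 goes from 0.76 to 0.43 with the copies, and mt-Co2, mt-Co3 and mt-Atp6 also come down.

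Both Etoh-Dox groups were also averaged and set against the 4 mice on Etoh, a contrast chosen after seeing the data. It uses the same mice as the 2 diet comparisons and is no further evidence beside them. The log2 difference was 0.29 for mt-Nd2 (SE 0.068, adjusted p = 0.296, edgeR) and 0.45 for mt-Nd3 with its copy (SE 0.089, adjusted p = 0.291, edgeR). Among all 14317 genes, 58 (0.405%) were higher in every mouse on Etoh-Dox. In this contrast 3 of 7 members (mt-Nd2, mt-Nd3 and mt-Nd4) had an unadjusted p under 0.05 and were higher, beside 5.62% of genes, and none of the 0.0419% of genes called by edgeR was a member. DESeq2 on all 13 mice called mt-Nd2 and mt-Nd3, beside 1.62% of genes, and edgeR without the count filter mt-Nd3, beside 0.021%.

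The genotypes on Etoh-Dox, which by the labels differ in the induced transgene only and are compared on the same diet, gave no call for a member. Log2 differences of ASAH+ from ASAH- mice were -0.07 for mt-Nd1, 0.0031 for mt-Nd2, 0.03 for mt-Nd4, 0.10 for mt-Nd4l, -0.06 for mt-Nd5 and 0.18 for mt-Nd6, beside the -0.30 of mt-Nd3 given above. That value of mt-Nd3 was the only member difference with an unadjusted p under 0.05 here, 1 of 7 lower, where 1.57% of all genes were, and 0.03 with the nuclear copy added. Leaving mt-Nd3 aside, the widest 95% interval was that of mt-Nd6, from -0.32 to 0.69, and the narrowest that of mt-Nd2.

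The other 6 mitochondrial mRNAs give the setting of these values. mt-Co2 and mt-Co3, subunits of cytochrome c oxidase, were the 2 genes that passed the test between ASAH- Etoh-Dox mice and ASAH+ Etoh mice, with log2 differences of 1.497 (adjusted p = 0.0800, edgeR) and 0.74 (adjusted p = 0.0633, edgeR). With their nuclear copies added the differences were 0.27 (SE 0.087) and 0.24 (SE 0.083) and did not pass (adjusted p = 0.398 and 0.432, edgeR). As deposited, 0 to 2 genes passed in this comparison when a single mouse was left out. In ASAH+ mice the log2 differences were 0.90 (SE 0.21, adjusted p = 0.417, edgeR) and 0.42 (SE 0.097, adjusted p = 0.409, edgeR) as deposited, and 0.25 and 0.23 with the copies added. Like mt-Nd2, both were higher in every mouse on Etoh-Dox than on Etoh as deposited (lowest 1189 against highest 892 CPM, and 6324 against 5929 CPM). With the copies added this held for mt-Co2 (8592 against 8572 CPM) but not for mt-Co3 (9098 against 9301 CPM). The others of these mRNAs overlapped in both settings. mt-Cytb, the mitochondrial subunit of complex III, differed by 0.20 in both diet comparisons, mt-Atp6 and mt-Atp8, of ATP synthase, by 0.16 to 0.32 in ASAH- mice and 0.17 to 0.18 in ASAH+ mice as deposited (mt-Atp6 with its copies by 0.16 and 0.14), and mt-Co1 by -0.06 and -0.12. The mitochondrial rRNAs, which the poly(A) selection should largely remove, had log2 differences of the opposite sign, -0.35 (mt-Rnr1, SE 0.18) and -0.22 (mt-Rnr2, SE 0.18) in ASAH+ mice and -0.44 (SE 0.19) and -0.33 (SE 0.19) in ASAH- mice. They took 0.105 to 0.172% of counts in ASAH- Etoh-Dox mice, 0.131 to 0.198% in ASAH+ Etoh-Dox mice and 0.142 to 0.244% on Etoh, and whether this difference between libraries bears on the members was not tested.

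Variation among mice was not the same for all members. The level of each member was compared with the mean log2 CPM of the other six over the 13 mice, as a description. Pearson's r was 0.773 for mt-Nd2, 0.745 for mt-Nd4, 0.698 for mt-Nd4l, 0.621 for mt-Nd1 and 0.572 for mt-Nd5, against 0.140 for mt-Nd3 and -0.018 for mt-Nd6. Within groups, after taking out the group means, r was 0.626 to 0.811 for the first 5 of these, and changed sign for both others, to -0.125 for mt-Nd3 and 0.290 for mt-Nd6. The lowest mt-Nd6 (ASAH- Etoh-Dox replicate 3) and the highest (ASAH+ Etoh replicate 4) were also the mice with the lowest and highest share of mitochondrial rRNA, 0.105 and 0.244%, and r between mt-Nd6 and that share was 0.731. For the other members r with that share was 0.262 (mt-Nd1), 0.186 (mt-Nd5), -0.111 (mt-Nd2), -0.126 (mt-Nd4l), -0.311 (mt-Nd4) and -0.541 (mt-Nd3). The 5 genes outside the members whose log2 CPM was most like the mean of the 7 were mt-Atp6 (r = 0.871), R3hcc1 (0.858), mt-Atp8 (0.854), Gm28438 (0.845) and Gm8203 (0.842). All points of these correlations share the library, its depth and its scaling factor.

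Genes that make, assemble or regulate complex I from the nucleus showed no call by edgeR in any comparison, and DESeq2 on all 13 mice called 1, the mitochondrial chaperone Dnaja3, lower by 0.16 in ASAH+ Etoh-Dox mice than on Etoh (log2 difference -0.16, adjusted p = 0.0964), where the same fit called 4.94% of all genes with an adjusted p. At an unadjusted p under 0.05 in edgeR stood 1 core subunit (higher), 1 gene of mitochondrial transcription and RNA processing and 2 stress genes (lower) in ASAH+ mice, and 2 accessory subunits and 1 stress gene (higher) and 1 gene of transcription and RNA processing (lower) in ASAH- mice. Over all genes tested 4.05% were higher and 3.24% lower in ASAH+ mice at that level, and 5.08% were higher and 4.11% lower in ASAH- mice, so these counts are given as a description and nothing is read from them about the lists. Of the 7 nuclear core subunits, all tested, 4 were higher and 3 lower in ASAH+ Etoh-Dox mice than on Etoh, with a median log2 difference of 0.04. Ndufs7, which carries the last iron-sulfur cluster before ubiquinone, measured 38.1 ± 7.96 CPM (SD, n = 5) on Etoh-Dox and 29.6 ± 3.87 CPM (SD, n = 4) on Etoh in ASAH+ mice, a log2 difference of 0.37 (SE 0.15, adjusted p = 0.630, edgeR). Ndufs1, the largest iron-sulfur subunit, had -0.16 (SE 0.073). In ASAH- Etoh-Dox mice the largest values were 0.30 for Ndufs7 and 0.21 for Ndufs8, and the median was 0.05.

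Of 31 accessory subunits 30 were tested, with medians of 0.03 and 0.09 in ASAH+ and ASAH- mice against Etoh. In ASAH+ mice 19 of the 30 were above 0, beside 7589 of all 14317 genes tested, and in ASAH- mice 25 of the 30 were, beside 7619 of all genes, of which 2 accessory subunits had an unadjusted p under 0.05, Ndufa7 at 0.39 (SE 0.13, adjusted p = 0.409, edgeR) and Ndufa2 at 0.32 (SE 0.11, adjusted p = 0.441, edgeR). In ASAH+ mice the largest were Ndufv3 at 0.24 and Ndufa13 at 0.24. The 17 assembly factors tested of 18 had medians of -0.01 and -0.0019, with Ndufaf5, a factor that modifies a core subunit, at -0.23 (SE 0.15) in ASAH+ mice and Ndufaf8 at 0.28 (SE 0.21) in ASAH- mice. Next in size were the assembly factors Ndufaf4 at -0.21 (SE 0.31) and Ndufaf3 at 0.20 (SE 0.18) in the same order of genotypes. Beside these medians of nuclear genes stand the 0.18 and 0.10 of the 7 members and the 0.01 and 0.02 of all genes, and the difference between the lists was not tested.

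The machinery that makes and keeps mitochondrial mRNA had no call either. Polrmt, the mitochondrial RNA polymerase, had log2 differences from Etoh of 0.19 (SE 0.14) in ASAH+ and 0.19 (SE 0.15) in ASAH- mice, and Tfam, which packages mitochondrial DNA and starts transcription, 0.03 (SE 0.10) and 0.0050 (SE 0.11). Lrpprc, which stabilizes most mitochondrial mRNAs together with Slirp, measured 116 ± 5.88 CPM (SD, n = 5) in ASAH+ Etoh-Dox mice, 121 ± 13.6 CPM (SD, n = 4) in ASAH- Etoh-Dox mice and 135 ± 8.34 CPM (SD, n = 4) on Etoh. Its log2 difference was -0.22 (SE 0.083, adjusted p = 0.593, edgeR) in ASAH+ mice and -0.15 (SE 0.088) in ASAH- mice, a sign opposite to that of mt-Nd2. Slirp itself had 0.00061 (SE 0.11) and 0.10 (SE 0.12), Fastk, whose mitochondrial form is known to be needed for mt-Nd6 mRNA, 0.12 (SE 0.13) and 0.22 (SE 0.14), and Grsf1, an RNA granule protein, -0.06 in both (SE 0.11 in each).

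Over the 29 genes tested of 30 for mitochondrial transcription and RNA processing the medians were -0.0085 and 0.01, with Fastkd1, of a family of mitochondrial RNA-binding proteins, at -0.29 and -0.28, and Tefm, the transcription elongation factor, at 0.25 in ASAH- mice. Over 15 genes of mitochondrial DNA maintenance and biogenesis they were 0.07 and 0.0021, with Ppargc1a, a coactivator that raises mitochondrial gene expression, at -0.30 (SE 0.24) and Tk2, a thymidine kinase of mitochondria, at 0.25 (SE 0.12) in ASAH+ mice, and Esrra and Nrf1, transcription factors of mitochondrial biogenesis, at 0.23 (SE 0.23) and 0.21 (SE 0.12) in ASAH- mice. Over the 18 mitochondrial stress genes tested of 20 they were 0.15 and 0.04. Among these Fgf21, a hormone released from stressed liver, measured 4.14 ± 1.79 CPM (SD, n = 4) in ASAH- Etoh-Dox mice, 2.78 ± 1.23 CPM (SD, n = 5) in ASAH+ Etoh-Dox mice and 2.16 ± 1.10 CPM (SD, n = 4) on Etoh, and the log2 difference in ASAH- mice was 0.95 (SE 0.44, adjusted p = 0.552, edgeR). Trib3, a target of the integrated stress response, had 0.52 (SE 0.33) in ASAH+ mice. Gdf15, another hormone of cell stress, had 0.78 (SE 0.80) and 0.83 (SE 0.84), with mice from 0.393 to 6.80 CPM. Between genotypes on Etoh-Dox, no median of these nuclear lists was farther from 0 than the -0.06 of the assembly factors. Only Hsd17b10, a subunit of the mitochondrial RNase P, had an unadjusted p under 0.05 among them, at -0.30 (SE 0.11, adjusted p = 0.9997, edgeR). Fgf21 had -0.57 (SE 0.41) and Pck2, the mitochondrial form of a gluconeogenic enzyme, -0.40 (SE 0.21) there. Of the biogenesis list, Ppargc1b had 0.27 (SE 0.27) and Ppargc1a -0.26 (SE 0.24). Among assembly factors, Ndufaf5 had -0.28 (SE 0.14) and Nubpl -0.18 (SE 0.11). The accessory subunits Ndufa7 and Ndufb3 had -0.17 (SE 0.12) and -0.16 (SE 0.080). The core subunits Ndufs8 and Ndufs7 had -0.07 (SE 0.10) and 0.07 (SE 0.15), and Mterf2, of the transcription list, -0.16 (SE 0.26).

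**Figure D5:**
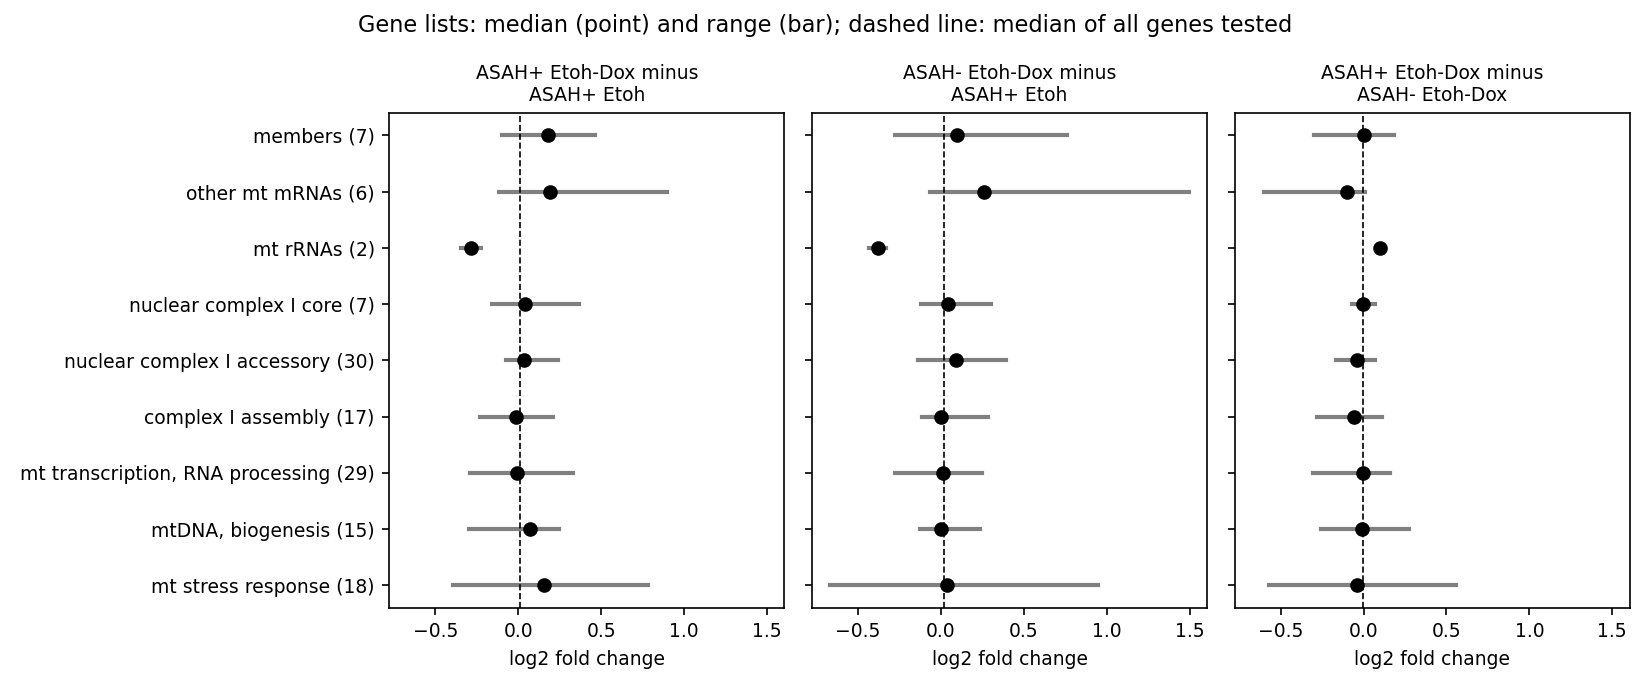
Median (point) and range (bar) of log2 fold changes by edgeR for the 7 members and the other gene lists, with the number of genes tested in brackets, in the 3 comparisons; mt stands for mitochondrial and the dashed line is the median of all 14317 genes tested. In the diet comparisons the members have medians of 0.18 and 0.10, the nuclear complex I core 0.04 and 0.05, and the mitochondrial rRNAs -0.28 and -0.38.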

How the data were processed

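RNA of whole liver from 13 mice was sequenced by the authors with a stranded poly(A) kit (TruSeq Stranded mRNA) as single reads of 100 bases, and quantified with salmon against GENCODE M19 (GRCm38.p6), with tximport to sum transcripts to genes; versions are not given in the sources used here. The deposited values are estimated counts (expected counts) per gene in a single table, and 100% of them are exactly whole, with no tolerance. No transcript lengths came with them. All columns of the table belong to the 13 mice, so no column was left unused. Groups follow the sample descriptions and induction labels, and replicate numbers follow the titles.

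Counts were tested with edgeR 4.0.16 (R 4.3.3): genes were filtered with filterByExpr, libraries scaled by TMM, 3 group means fitted to all 13 mice, and the robust quasi-likelihood test adjusted by Benjamini-Hochberg over all 14317 genes tested, with a threshold of 0.1. Intervals are 95%. CPM and log2 CPM (prior count 2) per mouse, and the share of each member in the 13 mitochondrial mRNA counts, were compared by exact two-sided permutation tests, unadjusted, 21 for each measure over 3 comparisons. Tests were checked on simulated data, of which no outcome is given here, and no value above rests on that check. DESeq2 1.42.0, limma 3.58.1 (voom), DESeq2 size factors, no count filter, library totals without mitochondrial genes, nuclear copies added, a replicate block and leaving out each mouse were alternatives. The contrast of both Etoh-Dox groups with Etoh, shares and levels with copies, and DESeq2 with each mouse left out, were added after seeing the data. Nuclear copies are genes that share words of 31 bases, on the same strand, with a mitochondrial mRNA in GENCODE M21 (GRCm38), to which 53355 of 53392 gene identifiers matched. Tables were handled with Python 3.11.15, numpy 2.4.6 and pandas 2.3.3.

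The members and gene lists were chosen with earlier results of these data known. Named were all members, the other 6 mitochondrial mRNAs, 6 regulators of mitochondrial RNA (Polrmt, Tfam, Lrpprc, Slirp, Fastk, Grsf1), and the 5 genes most like the mean of the members. In each nuclear list the genes past the threshold were named for each pair of groups. With none, the 2 with the largest log2 difference (mean log2 CPM above 1) were named. Others (the mitochondrial rRNAs, Gm28438, and Dnaja3) were named after their values were seen. The hepatocyte marker Tf was not matched. Library totals give the precision of each value: counting error was at most 0.768% of the level for the members other than mt-Nd3 (2.80%) and mt-Nd6 (7.31%).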

Additional observations from a re-analysis of the deposited data

Results flagged for a closer look

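In the ASAH- mice on Etoh-Dox, the fourth mouse measured 109 CPM of mt-Nd3, far below the 143 to 149 CPM of the other 3 mice, and it was also the mouse with the smallest percent of the pair counted on mt-Nd3 in that group (10.1%). With Gm28438 added it measured 1084 CPM, within the 1076 to 1155 CPM of the other 3. In the same mouse mt-Nd5 made up 5.36% of mitochondrial mRNA counts, above the 4.43 to 4.51% of the other 3 mice. Both were picked out by the gap between the extreme mouse and its nearest neighbour relative to the range of the group, in 42 groups of values examined, where chance picks out about 1 in 20.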

How the results depend on the processing

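The log2 differences of mt-Nd2 and mt-Nd3 from Etoh kept their sign in every alternative. Apart from DESeq2 with a mouse left out, they ran from 0.25 to 0.33 (ASAH+) and 0.24 to 0.32 (ASAH-) for mt-Nd2, and from 0.39 to 0.57 and 0.43 to 0.87 for mt-Nd3. Of 602 values of members under these alternatives, 23 had the other sign and 11, all of mt-Nd2 or mt-Nd3, passed the threshold. The adjusted p of mt-Nd2 in ASAH+ mice ran from 0.00443 to 0.862 and in ASAH- mice from 0.0355 to 0.707, and that of mt-Nd3 from 0.0486 to 0.862 and from 0.000646 to 0.640. Of the 11 that passed, all were from DESeq2 except mt-Nd3 by edgeR with no count filter in ASAH- mice (0.0606) and in both Etoh-Dox groups (0.0702). In ASAH+ mice DESeq2 adjusted over 1982 genes when fitted to all 13 mice and over 13584 when fitted to the 2 groups. Why the tools differ was not tested.

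Members called, against 0 by edgeR, were 2 with DESeq2 fitted to all 13 mice (beside 4.94% of genes) and 1 with DESeq2 fitted to 2 groups (mt-Nd2, adjusted p 0.0392, beside 0.839%) in ASAH+ mice. In ASAH- mice against Etoh they were 2 and 2 (beside 1.73% and 1.57%), and 1 with no count filter (0.007%). For both Etoh-Dox groups they were 2 (1.62%), and 1 with no count filter (0.021%). With a single mouse left out edgeR again called no member. DESeq2 with a mouse left out, added after seeing the data, called 1 to 2 in ASAH+ mice, 1 to 2 in ASAH- mice against Etoh, 0 between genotypes and 2 for both Etoh-Dox groups. The percent of all genes called by these fits varied with the mouse left out. Without ASAH- Etoh-Dox replicate 3 and 4 it was 0.653% and 4.54% in ASAH+ mice, and 0.312% and 4.4% in ASAH- mice against Etoh. In the same order it was 0.0141% and 0.177% between genotypes, and 2.05% and 4.41% for both Etoh-Dox groups. In ASAH+ mice DESeq2 lost mt-Nd3 without ASAH- Etoh-Dox replicate 2 or 3, ASAH+ Etoh-Dox replicate 2, 3 or 4, or ASAH+ Etoh replicate 2, 3 or 4 (adjusted p 0.175 to 0.410), and in ASAH- mice mt-Nd2 without ASAH- Etoh-Dox replicate 1 (0.183) or ASAH+ Etoh replicate 1 (0.139). Of the nuclear lists, 1 gene was called in ASAH+ mice by DESeq2 on all 13 mice.

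Of all genes, edgeR called 2 in ASAH+ mice, and 98 (DESeq2, 13 mice), 114 (DESeq2, 2 groups), 4 (no count filter) and 2 to 8 with a mouse left out (8 without ASAH+ Etoh replicate 2) were called otherwise. In ASAH- mice against Etoh 2 became 149, 168, and 0 by edgeR on the 2 groups (1257 at an unadjusted p under 0.05), with copies added (1310) or with the block (1027), and 0 to 2 with a mouse left out: 2 without ASAH- Etoh-Dox replicate 4, 1 without ASAH+ Etoh-Dox replicate 1 or ASAH+ Etoh replicate 3, and 0 without any other (881 to 1402). Between genotypes 2 became 12, 11, 1 (edgeR on the 2 groups), 1 (block) and 1 to 2 (1 without ASAH- Etoh-Dox replicate 1, 3 or 4). For both Etoh-Dox groups 6 became 211, 2 (copies), 1 (block) and 1 to 5. Of the 21 tests of shares 3 had p under 0.05, and 1 to 4 with a mouse left out (1 without ASAH+ Etoh replicate 3 or 4).

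Small differences changed sign. mt-Nd3 between genotypes was 0.0277 with copies added. With a mouse left out, mt-Nd1 ran from -0.048 to 0.108 (ASAH+), -0.127 to 0.00859 (genotypes) and -0.0133 to 0.138 (both Etoh-Dox groups), mt-Nd2 from -0.0269 to 0.0457 (genotypes), mt-Nd5 from -0.0946 to 0.104, -0.0308 to 0.160 and -0.0627 to 0.132 (ASAH+, ASAH-, both), and mt-Nd6 from -0.257 to 0.0714 (ASAH+) and -0.00918 to 0.338 (genotypes).

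Replicate numbers did not pair the mice: deviations of the 12 same-numbered pairs had a mean correlation of -0.0462 (-0.265 to 0.190), against 0.0127 for the 44 other pairs. With the replicate block 2 genes were called in ASAH+ mice, mt-Nd5 there was 0.0528 and mt-Nd2 between genotypes -0.00705, and no member was called.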
